A study of Bos taurus with 2 samples.

Results

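The miR-148, miR-152 and miR-26 families were taken by name from the 670 bovine miRNAs of a 1-colour Agilent microarray. The rule took bta-miR-148a, bta-miR-148b, bta-miR-152, bta-miR-26a, bta-miR-26b and bta-miR-26c (bta, for cattle, is dropped below), with or without an arm suffix, and found all 6, each without a suffix. The rule uses names only, though the families were picked with earlier results of these data known. They are known as milk-rich families, yet on these arrays only miR-148a, miR-26a and miR-26b were above background, all in the pelleted fraction.

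A miRNA is a short RNA that guides the silencing complex to messenger RNAs through its seed, a stretch near its 5′ end. miR-148a, miR-148b and miR-152 carry the same seed and are known to repress the DNA methyltransferase gene DNMT1. miR-148a is among the most sequenced miRNAs of cow milk. miR-26a and miR-26b share another seed, are known to repress the histone methyltransferase gene EZH2, and lie within introns of the CTDSP phosphatase genes in mammals.

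The study compared 2 fractions of raw milk whey from Holstein cows. The exosome fraction was the pellet of a spin at 10000 g for 90 min at 4 °C, resuspended in buffer and spun again, with 2 washes per the labels. The supernatant fraction was the liquid above the pellet. Exosome is the labels' word: exosomes are usually pelleted at higher forces, so how far vesicles were separated here is uncertain, and no vesicle marker was measured by the array. The title of the supernatant sample calls the spin ultracentrifugation, although the stated force is 10000 g. RNA of 3 milk samples was mixed in equal parts for each fraction, and 40 ng was labelled with Cy3, so each fraction has 1 array. Differences between arrays therefore have no replicate check and no p-value, and a ± value below is the SD between spots of 1 array. Signal is background-subtracted spot intensity in array units. No spot was saturated. In whey, fewer vesicles and less miRNA per vesicle cannot be told apart, nor can either be told from a different recovery of RNA.

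The probes matter to the result because the miR-148 and miR-152 probes differ at few bases. Each miRNA had 2 probes of 30 spots each, the longer probe having 1 base more at its 3′ end. The longer probes of the miR-148 family, which includes miR-152, are shown, 5′ to 3′ as the array files give them, with capitals where a probe differs from that of miR-148a when aligned at the 5′ end.
miR-148a: acaaagttctgtagtgcact
miR-148b: acaaagttctgtGAtgcac
miR-152: CcCaagttctgtCAtg
The first 12 bases are the same in the miR-148a and miR-148b probes. Counted from 1 at the 5′ end, with the base of miR-148a first, the miR-148b probe differs by A13G and G14A. The miR-152 probe differs from that of miR-148a by A1C, A3C, A13C and G14A. It differs from that of miR-148b by A1C, A3C and G13C.

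The longer miR-26 probes are shown because they include a pair of opposite strands. Capitals in miR-26b mark differences from miR-26a. Capitals in miR-26c, and in the reverse complement of the miR-26a probe given for comparison, mark the stretch they share.
miR-26a: agcctatcctggatt
miR-26b: aAcctatcctgAattacttg
miR-26c: ttcaagtAATCCAGGATAGG
reverse complement of miR-26a probe: AATCCAGGATAGGct
The miR-26b probe differs from the miR-26a probe by G2A and G12A over the 15 bases they can be compared on. The miR-26c probe shares 13 bases with the reverse complement of the miR-26a probe. It reads the strand opposite to miR-26a, so miR-26c belongs to the family here by its name and not by a near-identical sequence.

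The array design places the longer probes in the build HGSC Btau_3.1. The miR-148a probe is at chr4:72669246-72669264 and the miR-148b probe at chr5:28577757-28577774. The miR-152 probe is at chr19:39650406-39650420. The miR-26a probe has 2 positions, chr5:60085872-60085886 and chr22:11464119-11464133. The miR-26b probe is at chr2:110812704-110812722 and the miR-26c probe at chr22:11464152-11464171. The miR-26a and miR-26c positions on chromosome 22 do not overlap, although these probes are complementary over 13 bases. The positions are given as the design states them, and whether both hold in the same build is uncertain. For miR-148a, miR-148b, miR-152 and miR-26b the stated interval lacks 1 base of the probe, which leaves an end uncertain by 1 base. RefSeq, on the assembly ARS-UCD2.0, served for names and overlaps only, and all 6 names matched there, to 7 genes. The miR-148b gene overlaps COPZ1 and the miR-152 gene COPZ2, which encode coatomer subunits. The miR-26a genes overlap CTDSP2 and CTDSPL, and the miR-26b gene overlaps CTDSP1. The miR-26c gene has the same interval as the miR-26a gene in CTDSPL. The miR-148a gene overlaps no protein-coding gene in that table.

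Detection separated the members within both families. A probe counted as detected if the scanner software flagged 50% or more of its spots as well above background. A single detected probe sufficed for its miRNA. In the miR-148 family miR-148a was detected on the exosome array only, while miR-148b and miR-152 were detected on neither array. In the miR-26 family miR-26a and miR-26b were detected on the exosome array only, and miR-26c on neither. Of the 6 members, 3 were on the exosome array only, a class that held 5.37% of all miRNAs on the array. The exosome array as a whole detected 9.85% of all miRNAs. No member was detected on the supernatant array, where 12.7% of all miRNAs were, and so none was in the class detected on both, with 4.48%. The other 3 members fell in the class detected on neither, with 81.9%. If every probe of a miRNA had to be detected, miR-148a and miR-26a remained in the exosome-only class, which then held 1.94% of all miRNAs, and miR-26b dropped out. With spots that were positive and significant, a laxer call of the same software, miR-148a and miR-26b were in exosome only (7.91% of all miRNAs). miR-26a was then detected on both arrays, as were 18.4% of all miRNAs.

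miR-148a, the milk miRNA that defines the first family, read 110 ± 8.23 in exosome (59 spots) and 0.57 ± 3.02 in supernatant (60 spots). Its exosome spots ran from 67.5 through a median of 118 to 156, and its supernatant spots from -6.05 through 0.34 to 7.82. The spots of the arrays did not overlap. All 59 exosome spots were well above background, against 0 of 60 on the supernatant array.

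miR-148b and miR-152, the seed relatives of miR-148a, gave no such signal. miR-148b read 0.066 ± 4.06 in exosome (60 spots) and -1.52 ± 3.68 in supernatant (59 spots). Although its longer probe shares its first 12 bases with that of miR-148a, 0 of its 60 exosome spots were well above background. miR-152 read -2.17 ± 2.65 and -1.91 ± 3.30 over 60 spots on each array. For both miRNAs the arrays differed by less than the SD between spots and the spots overlapped. No miRNA that counted as detected read below 8.21 in exosome or 7.04 in supernatant, so a weak level of miR-148b or miR-152 could have been missed. Neither value is a firm limit, because detection was called on the spots of each probe. let-7i, at 10.9, was not detected on the exosome array, nor was miR-2288, at 15.5, on the supernatant array.

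miR-26a read 74.4 ± 6.32 in exosome (58 spots) and 0.97 ± 3.59 in supernatant (59 spots). Its exosome spots ran from 29.9 through a median of 71.0 to 124.7, and its supernatant spots from -9.32 through 0.96 to 8.38. The spots of the arrays did not overlap. All 58 exosome spots were well above background and 0 of the 59 supernatant spots were.

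miR-26b, the relative whose gene overlaps CTDSP1, rested on 1 probe. It read 29.96 ± 4.37 in exosome (55 spots) and -1.98 ± 3.15 in supernatant (57 spots). The exosome spots ran from 6.08 through a median of 35.4 to 57.5, and the supernatant spots from -10.1 through -1.81 to 3.87, again without overlap. Only 29 of the 55 exosome spots were well above background, 28 of them on the longer probe. The shorter probe had 1 of 27, although all 27 were flagged positive and significant.

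miR-26c read -0.87 ± 3.47 in exosome (59 spots) and -1.10 ± 3.15 in supernatant (57 spots). The spots overlapped, and the array showed no signal for the strand opposite to miR-26a. On the supernatant array all 6 members lay between -1.98 and 0.97. The control probe set called NegativeControl read 3.71 ± 3.02 there (391 spots), so each member averaged below it.

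**Figure D1:**
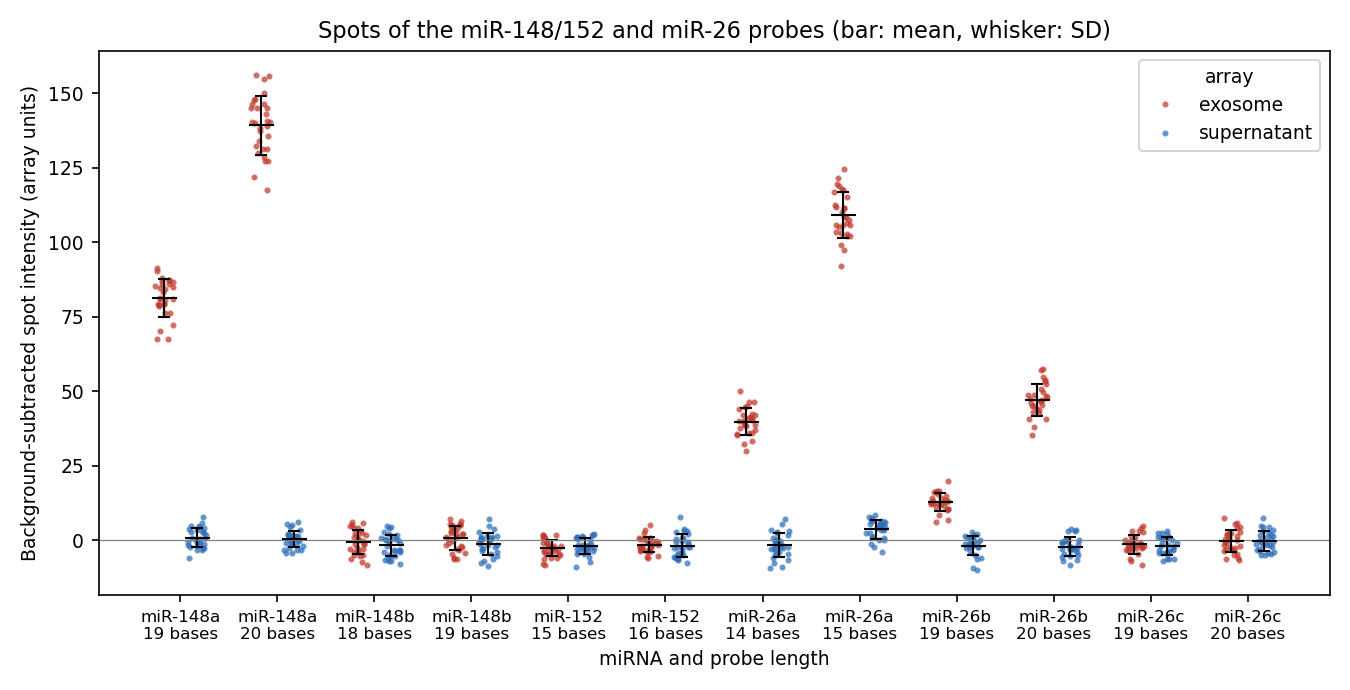
Background-subtracted intensity of every spot of the 12 member probes, outlier spots left out, by probe (horizontal axis) and array (red exosome, blue supernatant). Black bars are means and whiskers SDs between spots. The miR-148a, miR-26a and miR-26b probes rise above 0 on the exosome array, and all other groups of spots lie around 0.

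Within each detected member the longer probe was the brighter one. On the exosome array the 20-base probe of miR-148a read 139 ± 9.77 (30 spots) and the 19-base probe 81.4 ± 6.34 (29 spots), a ratio of 1.71. For miR-26a the 15-base probe read 109 ± 7.72 and the 14-base probe 39.7 ± 4.49 (29 spots each), a ratio of 2.75. For miR-26b the 20-base probe read 47.2 ± 5.39 (28 spots) and the 19-base probe 12.8 ± 3.03 (27 spots), a ratio of 3.70. These ratios are ordinary for the exosome array. Among 61 miRNAs there with 2 probes that differ by 1 base, at least 1 detected and both above 0, the longer was brighter in 58. The median ratio was 3.20, with quartiles of 1.28 and 5.71. On the supernatant array the 15-base miR-26a probe read 3.61 ± 3.13 (29 spots) and the 14-base probe -1.67 ± 4.01 (30 spots). That 15-base probe had 17 of 29 spots positive and significant, the largest share of any member probe on that array, and 0 well above background.

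**Figure D2:**
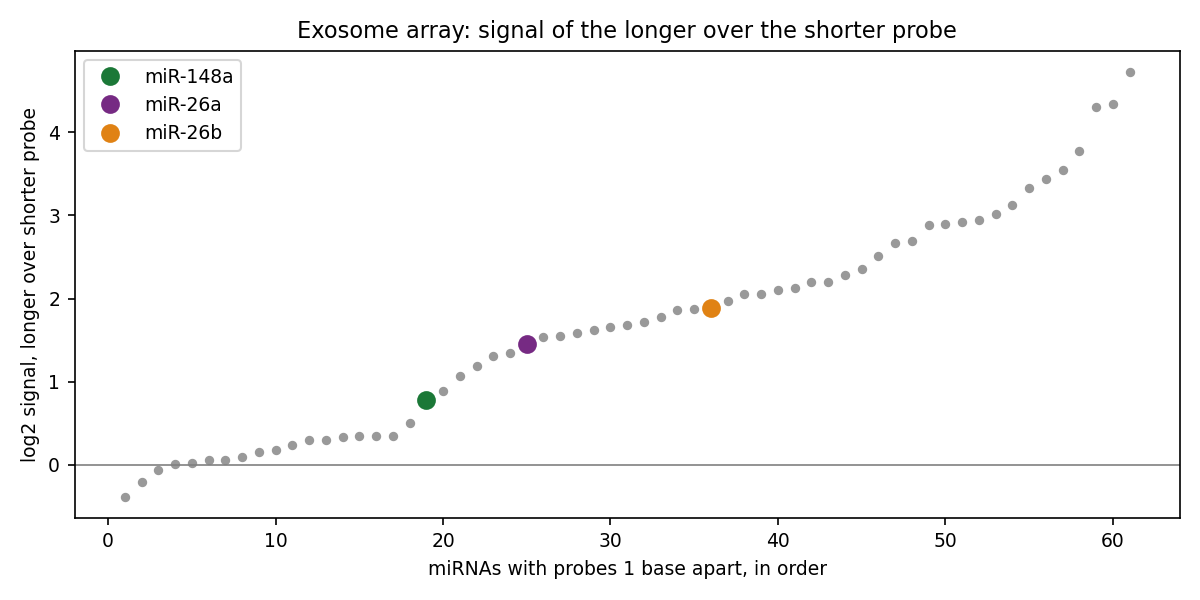
Log2 ratio of the longer to the shorter probe on the exosome array for the 61 miRNAs whose probes differ by 1 base (vertical axis), in ascending order (horizontal axis). The members, in colour, sit at 0.77, 1.46 and 1.89, within the range of the other miRNAs.

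Since the supernatant side was below background, a difference can only be given as a lower bound. The bound sets the exosome signal against the higher of the miRNA's own supernatant signal and the lowest signal of a detected miRNA in supernatant. For the detected members the latter was the higher. It is no firm detection limit, since miR-2288, at 15.5 in supernatant, was not detected there. The members' bounds hold only against that lowest detected signal, 7.04. As measured, with no scaling between arrays, miR-148a was at least 15.7-fold higher in exosome, miR-26a at least 10.6-fold and miR-26b at least 4.26-fold. The arrays differed in brightness over the 53 probes that both detected, where the 75th percentile was 473 for exosome and 15030 for supernatant. These probes are a subset unlike the members' class. For miRNAs detected on both arrays the longest probe had a median of 13 bases and 70.7% GC. For miRNAs detected on exosome only it had 18 bases and 46.9% GC. Scaled to the 75th percentile of all probes, the log2 bounds were 4.22, 3.66 and 2.34, against 3.97, 3.40 and 2.09 without scaling. Dividing by the percentile of the 53 probes raised each bound by 4.99 on the log2 scale. The bounds were then at least 498-fold, 336-fold and 135-fold in the same order.

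The size of the bounds rests on that choice. The labelling controls, synthetic RNAs that go through the labelling step, were brighter on the exosome array by 1.80 (dmr_285) and 1.38 (dmr_31a) on the log2 scale. Scaled to them, miR-148a was at least 5.21-fold higher, miR-26a at least 3.52-fold and miR-26b at least 1.42-fold, which is under 2-fold. The hybridisation controls dmr_3 and dmr_6, added later, differed by only -0.059 and -0.10. Scaled to these, the log2 bounds were 4.05, 3.48 and 2.17. Each of the 3 members was on the exosome side under all 7 scalings tried, and miR-148a and miR-26a stayed above 2-fold under each. A member seen on the exosome array only can have a bound in no other direction.

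**Figure D3:**
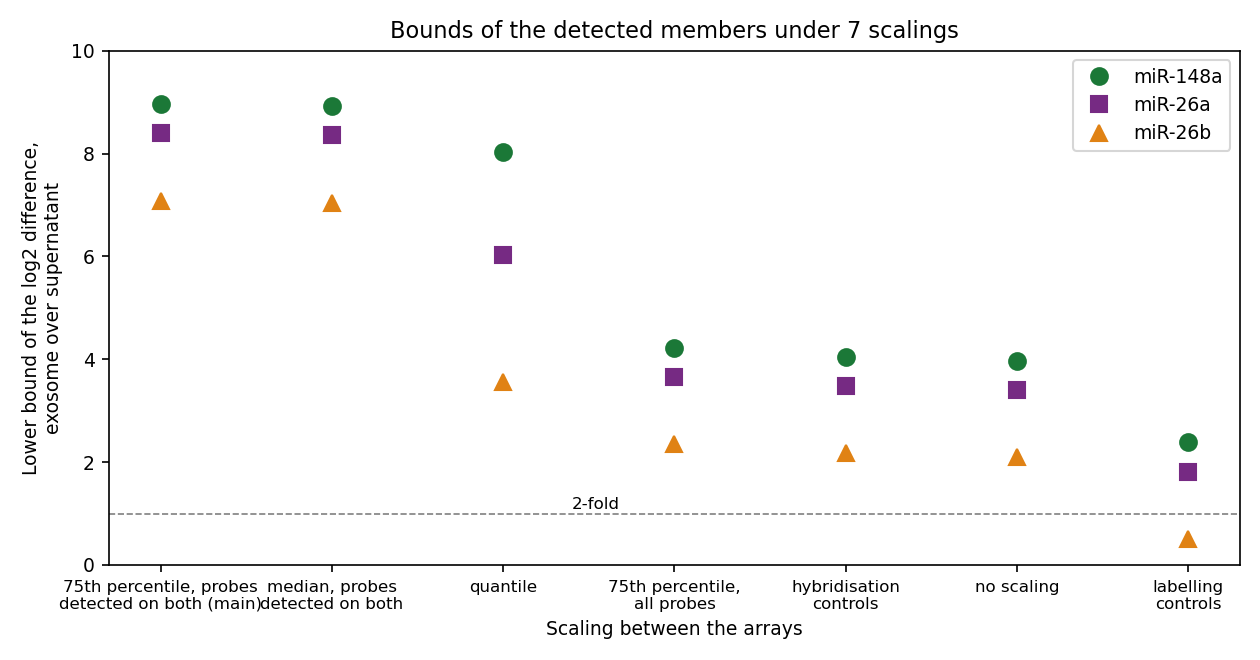
Lower bound of the log2 difference, exosome over supernatant (vertical axis), of miR-148a, miR-26a and miR-26b under 7 scalings between the arrays (horizontal axis). The bounds of miR-148a run from 2.38 to 8.96, and only miR-26b with the labelling controls, at 0.50, lies below the dashed 2-fold line.

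Many other miRNAs had such bounds. With the 75th percentile scaling, 43% of the 121 miRNAs detected on at least 1 array were at least 2-fold higher in exosome, by a measured value or a bound, as were 3 members. Without scaling the share was 28.1%, again with 3 members. With the labelling controls it was 9.92%, or 12 miRNAs, among them the members miR-148a and miR-26a. Among the 36 miRNAs seen on the exosome array only, unscaled bounds ran from 1.11-fold to 54.7-fold, with a median of 3.20-fold. The bounds of miR-148a, miR-26a and miR-26b stood at places 3, 6 and 13 of these 36. The order follows exosome probe brightness, except where a miRNA's own supernatant signal set the bound. An example is miR-2288, in place 36 with 17.3 in exosome and 15.5 in supernatant. The order is not one of abundance.

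**Figure D4:**
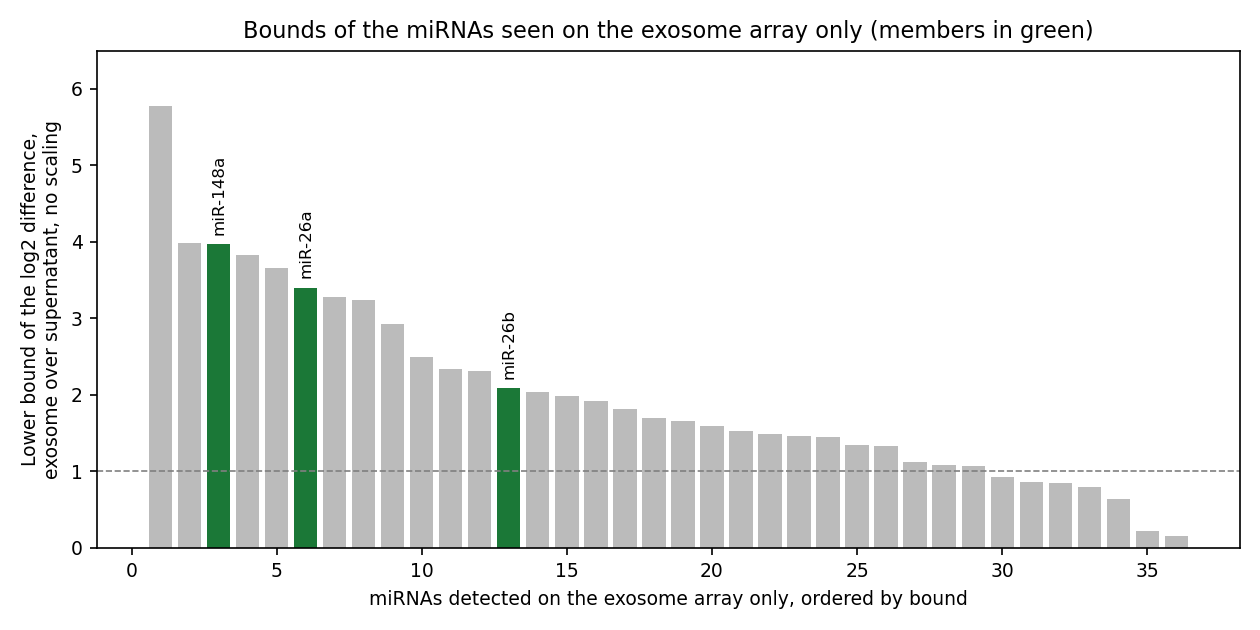
Unscaled lower bound of the log2 difference, exosome over supernatant (vertical axis), of the 36 miRNAs detected on the exosome array only, in descending order (horizontal axis). miR-148a (3.97), miR-26a (3.40) and miR-26b (2.09) are in green, above the dashed 2-fold line at 1.

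The miRNAs of the same class with the nearest bounds were taken as those most like each member, over 2 arrays. For miR-148a these were let-7c and let-7f, of the let-7 family, at least 15.9-fold and 14.2-fold without scaling. For miR-26a they were miR-20a, of the miR-17-92 cluster, at least 9.70-fold, and miR-103, at least 9.49-fold. For miR-26b they were miR-24-3p at least 4.11-fold and miR-29a at least 3.95-fold. Such likeness is one of probe brightness on 1 array.

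Other miRNAs often reported from milk were seen on the exosome array too. Of 39 listed miRNAs on the array, members left out, 13 (33.3%) were seen in exosome only and 8 in both fractions. A further 1 was seen in supernatant only and 17 in neither. Over all miRNAs these classes held 5.37%, 4.48%, 8.21% and 81.9% in the same order. The list was drawn up with earlier results of these data known, so its count is a description. After scaling 21 of the 39 were at least 2-fold higher in exosome, 17 without scaling and 7 with the labelling controls. Over all 670 miRNAs the counts were 52, 34 and 12. The 21 include miR-30a-5p, miR-30d and miR-320, which were brighter in supernatant without scaling, at log2 -1.03, -1.21 and -1.02. The list's largest bounds were those of let-7a, let-7c and let-7f. Its largest measured log2 differences were those of let-7b (9.20 after scaling), miR-200c (7.93) and miR-375 (6.28). With the labelling controls these 3 stood at 2.63, 1.35 and -0.30.

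Markers of epithelial and other cells were counted beside the members. Of 5 epithelial miRNAs of the miR-200 family, 2 were seen in exosome only, 2 in both and 1 in neither, with summed signals of 768 in exosome and 231 in supernatant. Of 27 markers of leukocytes, red cells, muscle, liver, neuron, endothelium and mesenchyme, the exosome array detected 0 and the supernatant array 4. Their summed signals, without scaling, were -0.15 and 191.4. Most of the latter came from miR-133a, at 78.9 in supernatant, and miR-133b, at 74.8. The 4 are 14.8% of the list, close to the 12.7% that the supernatant array detected of all miRNAs, and the 0 stands against 9.85% for the exosome array.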

How the data were processed

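The 6 members and all lists were chosen with earlier results of these data known. Agilent Feature Extraction 10.7.3.1 read the images, per the file headers and the submitters' processing notes. It left the deposited intensities background-subtracted and without scaling between arrays. The authors' deposited value table holds log2 of the software's total per miRNA over its fill value of 0.1, to within 6.23e-06. It has 691 rows, and the median of each column is 0.

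Each array had 42364 spots, 40200 of them for miRNAs. Outlier spots were dropped, 1005 for exosome and 1032 for supernatant. Spots were averaged per probe, then probes per miRNA. Scaling divided each array by its 75th percentile over the 53 probes seen on both. The SD pools the probes' SDs as a root mean square. No test was possible with 1 array per fraction, and the array number limits the precision. Genes named by rule beside the members were the 3 largest bounds and 3 largest measured differences of the milk list, and the 2 nearest bounds per detected member. Others were named after their values were seen: let-7i, miR-2288, miR-2957, miR-30a-5p, miR-30d, miR-320, miR-141, miR-133a and miR-133b. Scaling, background correction, probe summary, spots, floor and detection rule were varied. The steps were tested on simulated data. The offset between the simulated arrays was removed before the check, so the scaling between arrays was not tested. Tools were limma 3.58.1 in R 4.3.3, and Python 3.11.15 with matplotlib 3.10.9, pandas 2.3.3 and numpy 2.4.6.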

Additional observations from a re-analysis of the deposited data

How the results depend on the processing

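No paired analysis was possible because each fraction has 1 array, and no replicate could be left out. The 3 members had values above 1-fold toward exosome under every alternative that gave them a value, while the size of the bound moved. For a bound this direction is fixed in advance, since a bound at or below 1-fold is left blank. With the labelling controls 20 of the 36 miRNAs seen on the exosome array only kept a bound. The values that follow are log2 bounds, exosome over supernatant, for miR-148a, miR-26a and miR-26b in that order, against 8.96, 8.39 and 7.08. Other scalings gave 3.97, 3.40 and 2.09 (none), 4.22, 3.66 and 2.34 (75th percentile of all probes), 8.03, 6.03 and 3.56 (quantile), 2.38, 1.82 and 0.50 (labelling controls) and 4.05, 3.48 and 2.17 (hybridisation controls). Background correction by normexp gave 5.73, 5.41 and 4.87, where the offset of 50 exceeded the dim signals. The probe summary gave 7.86, 7.51 and 6.30 (longest probe), 7.83, 7.48 and 6.27 (brightest probe) and 7.45, 6.76 and 5.59 (mean of log2). The software's total gave 9.25, 8.69 and 7.37, the lowest detected probe as floor 7.54, 6.97 and 5.66, and the deposited value table, against its fill value, 9.87, 9.30 and 7.99. With outlier spots kept miR-148a had 8.80 and miR-26a 8.24. Detection rules gave 9.34, 8.78 and 7.46 (software flag), 8.23, 7.66 and 6.35 (50% of all spots together) and 9.43, 8.86 and 7.55 (25% of a probe's spots). With every probe required, miR-148a had 7.50 and miR-26a 6.94, and miR-26b was no longer detected, since 1 of its 2 probes fell short. With positive and significant spots miR-148a had 9.16, and miR-26a was detected on both arrays, so 1 member was. That rule put 18.4% of all miRNAs on both arrays. The count of all miRNAs at least 2-fold higher in exosome, 52, became 34 without scaling, 12 with labelling controls, 132 with positive and significant spots and 22 with every probe required. Beyond the alternatives' own construction, the cause was not tested.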

Other observations

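RefSeq lists a further miRNA with a miR-148 name, MIR148C, overlapping the miR-152 gene, and gives miR-2957 as its older name. The array carried miR-2957, which read -1.09 ± 3.17 in exosome and -0.75 ± 3.13 in supernatant (60 spots each) and was detected on neither. The longer miR-152 probe shares 11 bases with the reverse complement of a miR-2957 probe. RefSeq also lists MIR148D overlapping the miR-148a gene, and no probe under that name was analysed here. RefSeq pairs a member with an overlapping miRNA also on the array at 2 loci, miR-152 with miR-2957 and miR-26a with miR-26c. The second miRNA of each pair was detected on neither array, as were 81.9% of all miRNAs. miR-152 was itself detected on neither, so only miR-26a differed in detection from its partner.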
